A study of Caenorhabditis elegans with 4 samples.

Results

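The genes described here encode the enzymes that build the 2 amide amino acids in Caenorhabditis elegans, a free-living nematode: the asparagine synthetase asns-2 and the glutamine synthetases gln-1, gln-2, gln-3, gln-5 and gln-6. They were found by name among the 16562 loci of the authors' deposited table, each as a locus holding a single gene, so 6 of 6 genes were measured. asns-2 was picked because its value differed between the conditions compared below, and the glutamine synthetases were added because their enzyme makes a substrate of asparagine synthetase. The comparison of these genes between conditions is therefore a description, and the deposited p-values are quoted as the authors' column, not as an independent test.

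Whole worms were sequenced in 2 conditions with 2 samples each. Both groups were of WT genotype, labelled L4, the last larval stage, and were grown on Escherichia coli OP50 at 20 °C. The NO group received 1 mM MAHMA NONOate, a compound that releases nitric oxide (NO) in solution, and recovered for 4 h at 20 °C before total RNA was taken, while the control group carries only the agent label control. The protocol text does not differ between the groups and leaves unsaid how the controls were handled, so NO, the donor compound and the handling cannot be told apart. The authors gave 1 value per condition for each locus, read here as FPKM (fragments scaled by transcript length and library size), and single libraries were not analysed here. The spread between the 2 samples of a condition and the depth of each library are thus unknown. Each standard error (SE) below was derived from the deposited log2 fold and its test statistic. How the authors' test estimated its variance is not given in the sources used here. The labels do not state that the samples were separate cultures, so any spread between samples that the p-values reflect may be technical.

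Glutamine synthetase joins ammonia to glutamate with the use of ATP, and is the main route by which animal cells fix free ammonia into an amino acid. Asparagine synthetase takes the amide nitrogen of glutamine, transfers it to aspartate and releases glutamate. In mammals the asparagine synthetase gene is a standard target of ATF4, the transcription factor that acts when amino acids are scarce or the initiation factor eIF2 is phosphorylated. The worm has several glutamine synthetase genes and a pair of asparagine synthetase genes, asns-1 and asns-2.

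The authors' deposited table gave asns-2 a level of 23.8 FPKM in control worms and 289 FPKM after NO. The fold was 12.1, a log2 fold of 3.60 (SE 0.39, 95% interval 2.83 to 4.37), with a deposited p and adjusted p both printed as 0. On the linear scale the interval ran from 7.11-fold to 20.7-fold. In bulk RNA of whole worms, more cells with the transcript and more transcript per cell cannot be told apart. No other of the 15621 loci above 0 in both conditions had a larger test statistic in the deposited table. By fold alone, 43 loci ranked above asns-2, of which 12 were called at an adjusted p under 0.05, and the most abundant of those 12 reached 49.1 FPKM after NO. By its gain in FPKM, asns-2 was the fifth of the 64 loci called higher in the deposited table. In the order of all loci by abundance it moved from rank 5508 in control worms to rank 680 after NO.

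**Figure D1:**
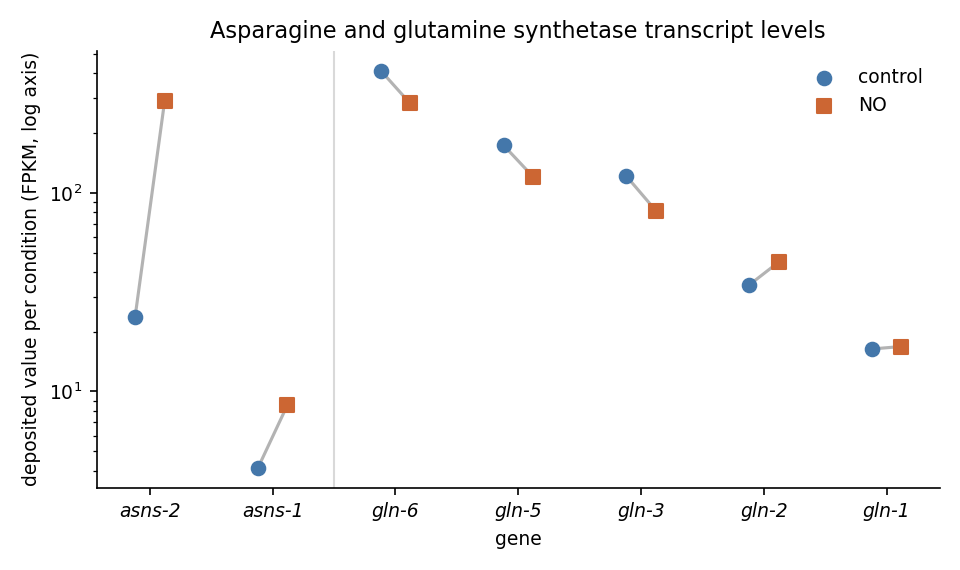
Deposited values in FPKM (log axis) of the asparagine synthetase genes asns-2 and asns-1 and of 5 glutamine synthetase genes, with 1 circle for control and 1 square for NO per gene, each combining 2 samples, so no error bar can be drawn. asns-2 goes from 23.8 to 289 FPKM, and gln-6, gln-5 and gln-3 each sit lower after NO.

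asns-1, the other asparagine synthetase gene, was a minor transcript in both conditions. The authors' deposited table gave it 4.12 FPKM in control worms and 8.54 FPKM after NO, which is 1.05 on the log2 scale (SE 0.52, 95% interval 0.03 to 2.07). Its unadjusted p was 0.0438 and its adjusted p 0.99994, so it was not called. FPKM values are per length and can be set beside each other between genes: asns-2 stood 5.77 times above asns-1 in control worms and 33.8 times above it after NO. The 2 genes summed to 27.9 FPKM in control worms and 297 FPKM after NO. asns-2 held 85.2% of that sum before and 97.1% after.

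The glutamine synthetase genes spanned a 25.2-fold range of levels in control worms. gln-6 was the most abundant at 412 FPKM, followed by gln-5 at 173 FPKM, gln-3 at 121 FPKM, gln-2 at 34.3 FPKM and gln-1 at 16.4 FPKM. After NO the order was the same, with 281, 120, 81.3, 44.8 and 16.8 FPKM in the deposited table. Which neighbours in that order differ beyond the spread between libraries could not be tested from 1 value per condition. gln-3, gln-5 and gln-6 had lower values after NO, and gln-2 and gln-1 had higher ones.

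gln-6, with the largest share of the family, stood at 68.3% of its control value by the authors' deposited table (log2 fold -0.55, SE 0.31, 95% interval -1.16 to 0.07, unadjusted p = 0.0798). gln-5 stood at 69.5% of control (log2 fold -0.53, SE 0.30, 95% interval -1.105 to 0.05, unadjusted p = 0.0757). gln-3 stood at 67.04% of control (log2 fold -0.58, SE 0.38, 95% interval -1.32 to 0.16, unadjusted p = 0.125). The log2 folds of these 3 genes, grouped here by their lower values after NO, spanned a range of 0.052. That range is small beside their SEs of 0.30 to 0.38, so no reading is drawn from it. Their control levels differed 3.40-fold. gln-2 stood at 130.3% of control (log2 fold 0.38, SE 0.37, 95% interval -0.34 to 1.103, unadjusted p = 0.299) and gln-1 at 102.9% (log2 fold 0.04, SE 0.42, 95% interval -0.79 to 0.87, unadjusted p = 0.923). All 5 intervals include 0. The intervals of the lower and the higher genes overlap, which is not a test of their difference, and differences within the family were not tested. The adjusted p was 0.99994 for each of the 5 in the deposited table.

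**Figure D2:**
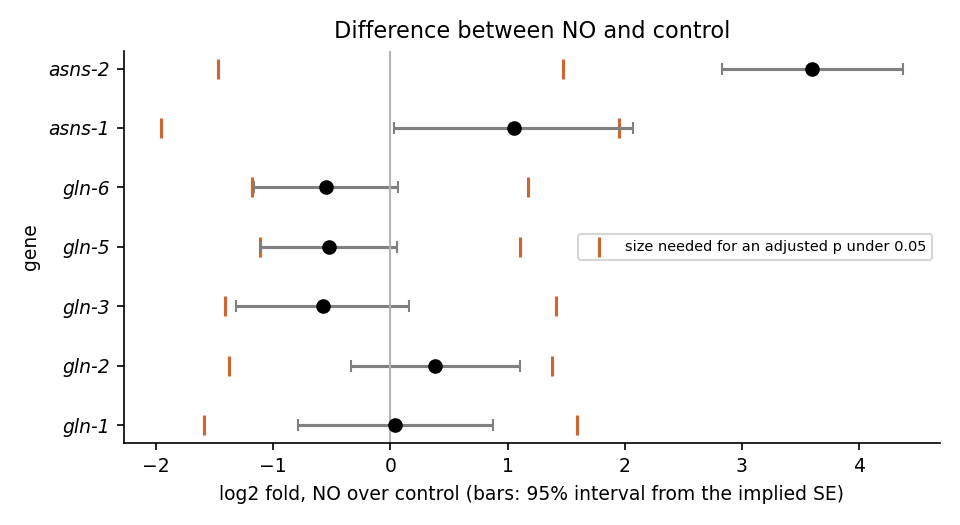
Deposited log2 fold of NO over control for each gene (points) with the 95% interval from the implied SE (grey bars) and the size at which a locus of that SE would have passed an adjusted p of 0.05 in this table (orange ticks). Only asns-2, at 3.60, lies outside its ticks, and the intervals of all 5 glutamine synthetase genes include 0.

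Of the 6 genes, 1 was called higher and 0 were called lower at an adjusted p under 0.05, where 0.386% of all loci were called higher and 0.0121% lower. No reading is drawn from that count, since asns-2 was chosen on the same contrast. Precision limited what could be called: the smallest test statistic among called loci was 3.75 in size, so with their SEs the 5 glutamine synthetase genes would have needed changes of 2.16-fold to 3.01-fold. Changes to between 67.04% and 69.5% of control, as listed for gln-3, gln-5 and gln-6, were not detectable at this precision, and the p-values do not show that these genes stayed level.

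The summed glutamine synthetase value was 757 FPKM in control worms and 545 FPKM after NO, or 71.9% of control (log2 ratio -0.48). gln-3, gln-5 and gln-6 together made up 93.3% of the sum in control worms and 88.7% after NO. gln-6 alone held 54.4% and 51.7%. gln-2 went from 4.54% to 8.22% of the family and gln-1 from 2.16% to 3.09%. The drop of the glutamine synthetase sum by 212 FPKM has no test. An SE of a sum cannot be built without knowing how the genes vary together between libraries. Over all loci the deposited values also summed to less after NO, at 1355746 FPKM in control worms and 1284083 FPKM after NO.

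**Figure D3:**
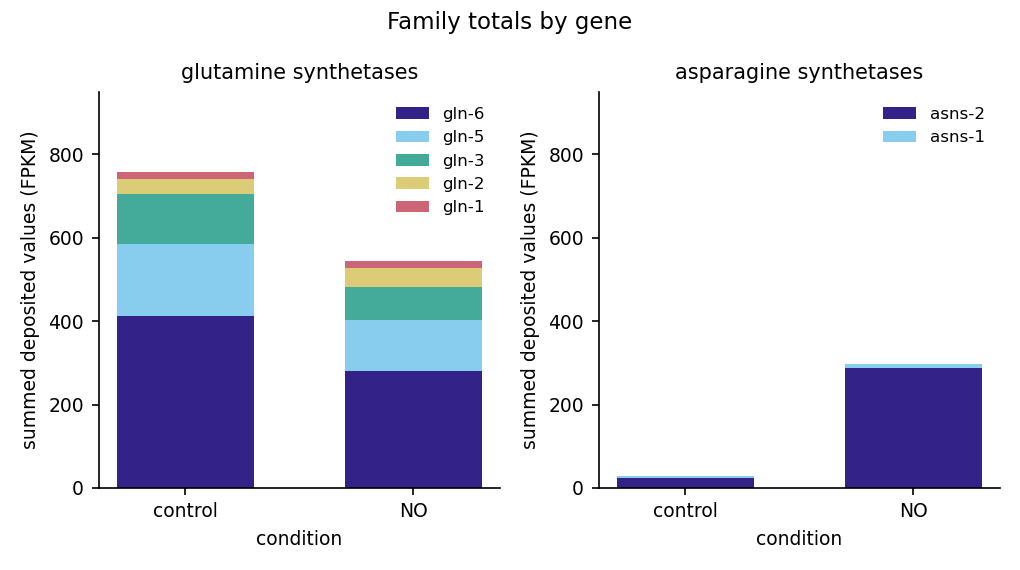
Summed deposited values in FPKM of 5 glutamine synthetase genes (left) and 2 asparagine synthetase genes (right) in control and NO, with each gene as a coloured segment. The glutamine synthetase total goes from 757 to 545 FPKM and the asparagine synthetase total from 27.9 to 297 FPKM, the latter almost all asns-2.

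The level of asns-2 relative to the glutamine synthetases differed between the conditions. In control worms the asns-2 level was 5.78% of the gln-6 level and 3.14% of the summed glutamine synthetase level. After NO it was 102.6% of the gln-6 level and 53.0% of the sum. asns-2 thus went from below gln-2 to a level next to that of gln-6, the highest of the family.

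Compared with loci of like abundance, gln-3, gln-5 and gln-6 lay near the lower edge. Loci whose mean of both conditions reached 1 FPKM were split by that mean into 10 classes, and the counts below cover the loci of a class that were above 0 in both conditions. The most abundant class ran from 129 to 28567 FPKM, so its loci match gln-6 and gln-5 in abundance only roughly. Its median deposited log2 fold was -0.14. Of its 1415 loci, 2.19% had a log2 fold below that of gln-6 and 2.83% below that of gln-5. asns-2 fell in the same class only through its value after NO, as its control value was 23.8 FPKM, so it is not compared with that class. In the class below it, from 61.5 to 129 FPKM, the median was -0.15, and 1.41% of 1419 loci lay below gln-3. Relative to those class medians, gln-6, gln-5 and gln-3 stood at -0.41, -0.39 and -0.43 on the log2 scale. In their own classes, 9.66% of 1418 loci lay above gln-2 and 44.6% of 1414 loci above gln-1. These shares are positions in the table, with no test.

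**Figure D4:**
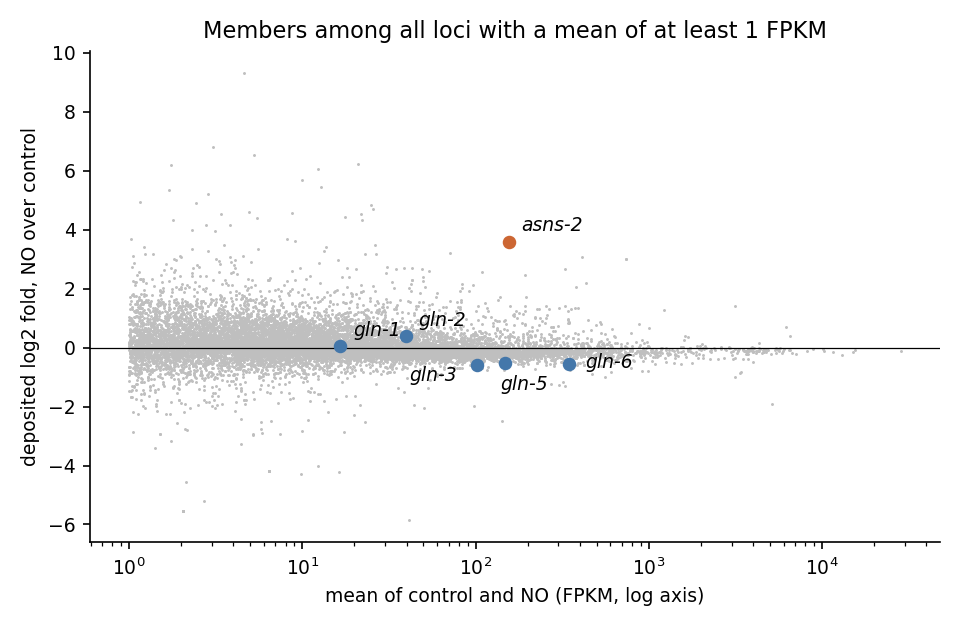
Deposited log2 fold of NO over control against the mean of both conditions in FPKM (log axis) for all loci whose mean reached 1 FPKM and whose values were above 0 in both (grey), with asns-2 in orange and 5 glutamine synthetase genes in blue. gln-3, gln-5 and gln-6 lie near the lower edge of the grey cloud, with other loci below them. The place of asns-2 on the abundance axis comes mostly from its value after NO, so it is not compared with loci around it.

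Markers of stage and tissue were measured beside these genes. The adult yolk protein genes vit-2 and vit-6 and the adult collagen gene col-19 were abundant in worms labelled L4, at 3032, 3948 and 2294 FPKM in control worms. Together they summed to 9273 FPKM in control worms and 7181 FPKM after NO, or 77.4% of control, with deposited log2 folds of -0.39 to -0.34. This is the direction listed for gln-3, gln-5 and gln-6, and the part of developmental stage in the glutamine synthetase values was not tested. The other 12 measured markers, of muscle, intestine, epidermis, neurons, germline and sperm, summed to 1533 FPKM in control worms and 1593 FPKM after NO. By group, the sums after NO were 278.7% of control for the weakly expressed epidermal pair (3.25 and 9.04 FPKM), 130.1% for sperm, 109.6% for muscle, 101.2% for intestine, 95.3% for germline and 90.5% for neurons. Both sperm genes, spe-11 and msp-142, had higher values after NO, with deposited log2 folds of 0.45 and 0.37. Most of the muscle sum came from unc-54, in a joined locus with aex-5, and most of the neuron sum from snb-1, joined with syx-18. The 2 glial markers of the list were not analysed here. Of all 15 measured markers 0 were called at an adjusted p under 0.05, where 0.399% of all loci were called in either direction. The lowest marker values were 0.691 FPKM in control and 1.17 FPKM after NO. Both were of dpy-7, an epidermal collagen gene listed in a joined locus with glb-16. The largest log2 fold among the markers, 1.62, was that of rol-6, a cuticle collagen gene, at 2.55 and 7.88 FPKM (unadjusted p = 0.0203, adjusted p = 0.99994).

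Genes next to asns-2 on its chromosome were not called. Of the 3 protein-coding genes on each side in the reference order, 5 were measured and 0 were called, where 0.399% of all loci were called. Their deposited log2 folds were -0.42 to 0.06. By the authors' deposited table, M02D8.5, directly beside asns-2, had 3.08 and 3.13 FPKM, and the more abundant zig-12, listed as M02D8.1, had 190.3 and 185.7 FPKM. Farther neighbours were M02D8.2, at 18.8 and 15.4 FPKM or 81.6% of control, M02D8.3, at 4.05 and 3.03 FPKM or 74.8% of control, and ZK721.4, at 1.13 and 1.19 FPKM. M02D8.7, on the other side, was not analysed here. Among the nearest measured neighbours of the glutamine synthetase genes, 8 of 10, 0 were called, with log2 folds of -0.43 to 1.26. The highest was ptr-4 beside gln-1, at 0.533 and 1.28 FPKM (unadjusted p = 0.0813).

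The 5 loci with a deposited log2 fold nearest to that of asns-2, among those of at least 1 FPKM in both conditions, were Y113G7B.27, numr-1, T05H4.4, F44E5.4 and F44E5.5. Their distance from asns-2 was 0.02 to 0.32 on the log2 scale, over only 2 conditions. By the authors' deposited table all were far less abundant, the highest being T05H4.4, with 4.31 and 48.4 FPKM. Y113G7B.27, the nearest, was not called (SE 4.12, adjusted p = 0.99994), and the other 4 were.

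gln-4 is annotated as a pseudogene in the reference gene table and is listed under its sequence name T25C8.3. The authors' deposited table gave 1.02 and 5.05 FPKM, with a log2 fold of 2.31 (SE 0.76, unadjusted p = 0.00226, adjusted p = 0.266), and it was not called. How reads shared between gln-4 and its protein-coding relatives were assigned is not given in the sources used here, and the same holds among gln-3, gln-5 and gln-6. None of the 6 genes had the same pair of values as another locus.

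The other genes of asparagine, glutamine and glutamate metabolism, and of the related lists below, were mostly not called. Lists of these pathways held 74 genes besides the 6, of which 69 were measured. At an adjusted p under 0.05, 1 was called higher and 0 lower, where 0.386% of all loci were called higher and 0.0121% lower. At such shares 0 calls is the usual count for a short list. The 0 calls of single lists below are therefore not read as a lack of response. At an unadjusted p under 0.05, 6 were higher and 1 lower, where 2.75% of all loci were higher and 0.338% lower. Over the 65 whose mean reached 1 FPKM, the median log2 ratio after adding 1 FPKM was -0.0017, against -0.03 over all 14285 such loci.

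Enzymes that supply aspartate or use asparagine and aspartate gave 0 calls among 11 measured genes, with a median log2 ratio of -0.11. got-2.2, an aspartate aminotransferase gene listed as C14F11.1, had 141.8 and 117.7 FPKM by the authors' deposited table. nars-1, which encodes the asparaginyl-tRNA synthetase that loads asparagine for protein synthesis and was named after its values were seen, had 181 and 191 FPKM. dars-1, for aspartyl-tRNA synthetase, had 255 and 268 FPKM, and adss-1, for the adenylosuccinate synthetase that uses aspartate in AMP synthesis, 229 and 233 FPKM in a joined locus. All 11 genes except asns-1 had log2 folds between -0.27 and 0.07.

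Enzymes that use glutamine gave 0 calls among 12 measured genes, with a median log2 ratio of -0.11. The glutamine-fructose-6-phosphate transaminase genes, at the entry of the hexosamine pathway, were the most abundant. gfat-2, listed as F22B3.4, had 331 and 239 FPKM by the authors' deposited table, 72.3% of control (log2 fold -0.47, SE 0.27, unadjusted p = 0.0826). gfat-1, listed as F07A11.2, had 172 and 136 FPKM, 78.9% of control. The glutaminase gene glna-3, whose enzyme returns glutamine to glutamate, had 13.5 and 17.5 FPKM.

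Among 8 glutamate and proline enzymes 0 were called, and 2 were higher at an unadjusted p under 0.05. The median log2 ratio was 0.20. pycr-1, listed as M153.1, encodes the reductase of the last step of proline synthesis and had 6.29 and 18.9 FPKM by the authors' deposited table (log2 fold 1.59, SE 0.49, unadjusted p = 0.0012, adjusted p = 0.173). alh-13, whose enzyme makes the first committed step from glutamate to proline, had 8.77 and 25.6 FPKM (log2 fold 1.54, SE 0.88, unadjusted p = 0.0779). gta-1, a GABA transaminase gene, had 307 and 584 FPKM (log2 fold 0.93, SE 0.30, unadjusted p = 0.00202, adjusted p = 0.244). The glutamate dehydrogenase gene gdh-1, listed as ZK829.4, had 809 and 712 FPKM. prdh-1, for the proline dehydrogenase that runs the opposite way, was named after its values were seen and had 35.2 and 27.7 FPKM in a joined locus.

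The 1 call within these lists was in serine and sulfur amino acid synthesis, a list of 8 measured genes with a median log2 ratio of 0.13. By the authors' deposited table cth-1, for a cystathionine gamma-lyase, rose 4.32-fold, with values of 36.1 and 156 FPKM (log2 fold 2.11, SE 0.38, adjusted p = 3.2e-05). Its paralog cth-2 was listed at 334 and 350 FPKM. cbs-2, a cystathionine beta-synthase gene listed as F54A3.4, had 2.68 and 5.69 FPKM (unadjusted p = 0.0375, adjusted p = 0.99994), and mel-32, for serine hydroxymethyltransferase, 479 and 409 FPKM in a joined locus.

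Transcripts of the integrated stress response, the pathway that raises ATF4 protein through phosphorylation of eIF2, gave 0 calls among 6 measured genes, with a median log2 ratio of -0.09. The worm ATF4 gene, listed under its earlier symbol atf-5, had 92.3 and 87.1 FPKM by the authors' deposited table (log2 fold -0.08, SE 0.32). eif-2alpha, listed as Y37E3.10, had 215.7 and 182.5 FPKM, and impt-1, in a joined locus, 29.3 and 24.9 FPKM. ATF4 is controlled largely at translation, which transcript levels do not measure.

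Transporters of these amino acids and of ammonium gave 0 calls. The 9 amino acid exchangers had deposited log2 folds of -0.38 to 0.48, with aat-9 at 28.4 and 25.4 FPKM, aat-6 at 22.4 and 25.3 FPKM, aat-3 at 10.9 and 8.34 FPKM and aat-5 at 8.20 and 10.6 FPKM by the authors' deposited table. The 9 glutamate transporters had log2 folds of -0.33 to 0.40, with glt-1, in a joined locus, at 141.02 and 138.9 FPKM, vglu-2 at 13.04 and 17.2 FPKM and glt-5 at 3.18 and 4.16 FPKM. Among 6 ammonium transporters, amt-1 had 10.3 and 4.37 FPKM (log2 fold -1.24, SE 0.49, unadjusted p = 0.0114, adjusted p = 0.751), while the abundant rhr-1 had 175 and 144.5 FPKM and amt-4 15.9 and 16.4 FPKM.

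**Figure D5:**
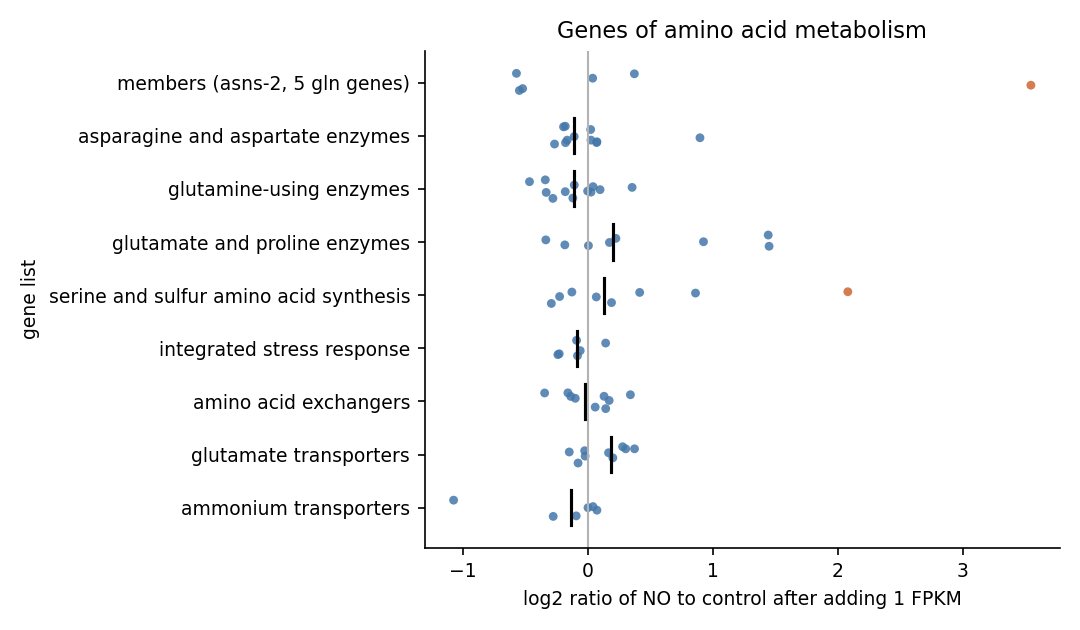
Log2 ratio of NO to control, with 1 FPKM added to both, for the 6 genes and for the measured genes of 8 lists, 1 point per gene, with orange points for genes called at an adjusted p under 0.05, blue points for genes not called and black bars for list medians over genes whose mean reached 1 FPKM. asns-2, at 3.55, and cth-1, at 2.08, are the called genes.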

How the data were processed

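RNA was sequenced from 2 control and 2 NO samples, with libraries from the Illumina TruSeq RNA kit per the labels' protocols. The submitters' processing notes name TopHat2 2.0.2, Cufflinks 2.0.5 and R 2.15.2 without settings. The genome build, gene annotation and library scaling were not given in the sources used here, and coordinates were therefore left out. The authors made 1 FPKM value per condition from both libraries before they deposited the table, whose columns are named per the file headers. The table does not name this unit, which was taken from its Cufflinks layout. The authors also deposited the ratio of NO to control as a fold, and its log2. The deposited score of the authors' test has the opposite sign to the fold. The deposited p-value is the two-sided normal tail of that score, and its adjusted form matched Benjamini-Hochberg over the 16562 loci within 3.4e-06. Library depth is unknown, so no counting interval is given.

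Since the values were combined, no count model or limma fit was made. A locus was called where the deposited adjusted p was under 0.05. The SE is the size of the ratio of the log2 fold to the score, and a 95% interval assumes normal error. Gene names were matched through a reference gene table (assembly WBcel235), which also gave gene types and the order of protein-coding neighbours. Python 3.11.15, pandas 2.3.3 and scipy 1.17.1 were used. The calling step was also run on normal scores simulated from the same SEs, which checks the code and not the authors' test. The 6 genes and all lists were chosen with earlier results of these data known. No promoter or protein sequence was examined. Genes named were the 6 and asns-1, then from each list the called genes, the 2 with the largest log2 ratio and the 2 most abundant, then nearest neighbours and the 5 loci nearest to asns-2 in fold. The more distant neighbours of asns-2 were added after seeing the data. Other settings tried were thresholds of 0.01 and 0.1, a fold of at least 2, adjustment over loci of at least 1 FPKM only, no joined loci, pseudocounts of 1 and 0.1 FPKM, centring on medians, and abundance filters.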

Additional observations from a re-analysis of the deposited data

How the results depend on the processing

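The number of loci called went from 66 to 42 at an adjusted p of 0.01, and lay between 63 and 90 under the other alternatives. asns-2 alone among the 6 genes, and 1 gene of the pathway lists, were called under each of the 5 alternatives for calls. The log2 fold of asns-2 ranged from 3.55 to 3.74 over pseudocounts and centring, and that of asns-1 from 0.90 to 1.09. No direction changed for these 2 genes or the 5 glutamine synthetase genes, but these 4 alternatives were hardly able to change one. A pseudocount added to both values keeps the direction, and the medians used for centring were small. The 4 alternatives were not run for single genes of the lists. Centring on loci of like abundance brought the summed glutamine synthetase ratio from -0.48 to -0.34. The pathway median was -0.08 among loci of at least 10 FPKM. No paired analysis was possible because the table holds 1 combined value per condition, and for the same reason no fit without a replicate could be run. The absence of single-library values and of the depth limits all comparisons to the precision of the deposited test.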
